A study of Mus musculus with 8 samples.

Results

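The cell surface heparan sulfate proteoglycans of the mouse ocular surface were examined through the genes for their core proteins, the 4 syndecans (Sdc1 to Sdc4) and the 6 glypicans (Gpc1 to Gpc6). The members were the rows of the expression table whose symbol was one of these 10 names, and all 10 were among its 23420 named genes. RNA was sequenced from dissected limbal rims, the ring of tissue between cornea and conjunctiva, and from the remaining corneal buttons of wild type C57BL/6J mice aged 8 weeks. Tissue from 16 eyeballs was pooled within each group before RNA extraction, and neither group carried a transgene, deletion or treatment. GEO names 8 samples, 4 for each tissue, numbered L001 to L004 in the manner of sequencing lanes. Behind the table stands 1 library per tissue, so no difference below has a replicate check.

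Syndecans cross the plasma membrane once and carry heparan sulfate chains, in some members also chondroitin sulfate, far from the cell surface. Glypicans are held on the outer leaflet of the membrane by a glycosylphosphatidylinositol anchor, with their heparan sulfate chains close to the surface. Through these chains both families bind growth factors, morphogens and matrix proteins, and in stratified epithelia syndecan-1 is the abundant member.

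The 4 syndecans share the end of their short cytoplasmic tail, which binds PDZ domain proteins such as syntenin, and it is shown because it sets the family apart from the anchored glypicans. The last codons of each coding sequence follow, 5′ to 3′, from GENCODE transcripts of GRCm38, with the last 4 codons and the stop codon in capitals.
Sdc1: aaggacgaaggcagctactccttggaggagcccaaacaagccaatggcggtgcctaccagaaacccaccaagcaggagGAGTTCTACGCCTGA
Sdc2: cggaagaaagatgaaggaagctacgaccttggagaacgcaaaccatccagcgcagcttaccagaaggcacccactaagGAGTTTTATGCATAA
Sdc3: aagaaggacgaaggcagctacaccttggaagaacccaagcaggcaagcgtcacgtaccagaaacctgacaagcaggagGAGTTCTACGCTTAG
Sdc4: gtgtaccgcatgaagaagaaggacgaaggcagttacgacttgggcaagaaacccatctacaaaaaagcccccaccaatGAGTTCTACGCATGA
Of the 12 bases in those 4 codons, 9 were equal in all 4 genes, and the same 4 residues were encoded in each.

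The 10 genes lie on 8 chromosomes of GRCm38, and each is annotated as protein coding. The syndecans lie at chr12:8771323-8793715 (Sdc1), chr15:32920723-33034935 (Sdc2), chr4:130792537-130826319 (Sdc3) and chr2:164424247-164443887 (Sdc4). Gpc1 lies at chr1:92831645-92860779 and Gpc2 at chr5:138273655-138280005. Gpc4 at chrX:52053021-52165252 and Gpc3 at chrX:52272426-52613950 are both on the minus strand of the X chromosome. Gpc5 at chr14:115092215-116525179 and Gpc6 at chr14:116925315-117976544 are both on the plus strand of chromosome 14, and both are far longer than the other members.

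Named genes took 26104317 reads of the cornea library, against 21182025 of the limbus library. Values below are reads divided by the size factor of their library, called normalized reads, and a ratio is limbus over cornea on the log2 scale. Intervals are exact Clopper-Pearson intervals at the 95% level from the share of a gene's reads that came from the limbus. They cover the counting error of independent reads only, and the spread between animals was not measured. The paper's methods mention no molecular identifiers, and PCR copies are not independent molecules, so the intervals may be too narrow. A gene was called tested, that is given a ratio and an interval, where both libraries had more than 3 reads. The ratios rest on the pair of read numbers kept for each gene, and the next best pair, which misses the deposited values by far more, moved the ratios of 8 members by over 1.5 times. The table does not name the tissues of its columns, and the direction was taken from the study's account of which keratins were higher in which tissue, so those keratins check nothing here.

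Of the 10 genes, 9 were tested, 6 had a higher level in the limbus beyond counting error and 3 a higher level in the cornea. Sdc3, Gpc1, Gpc3, Gpc4 and Gpc6 had higher normalized reads in the limbus, with ratios from 0.79 to 3.57, and Sdc2 had a ratio of 0.19. Sdc1, Sdc4 and Gpc2 had more normalized reads in the cornea, with ratios from -0.52 to -0.32. Among all 13862 genes tested, 33.2% were higher in the limbus by the same rule and 40.6% in the cornea, and 45.1% and 29.7% when the libraries were scaled to total reads. At least 2-fold higher levels in the limbus were found for 4 members, Gpc6, Sdc3, Gpc3 and Gpc4, against 15.5% of all genes, and at least 2-fold higher levels in the cornea for 0 members, against 8.99% of all genes. The median ratio of the 9 members was 0.79, and that of all genes was -0.05, with quartiles of -0.51 and 0.46.

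**Figure D1:**
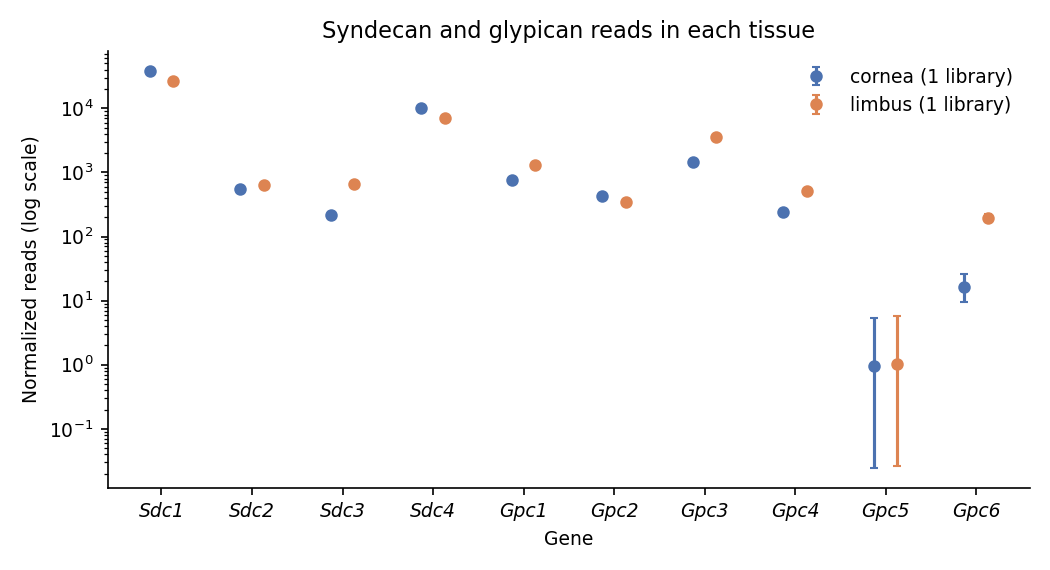
Normalized reads of the 4 syndecan and 6 glypican genes (log axis) in the cornea and limbus libraries, 1 point per library, with exact 95% Poisson intervals that are mostly smaller than the points. Sdc1 and Sdc4 have the most reads in both tissues, not divided by length, Gpc6 has 16.4 normalized reads in cornea and 195 in limbus, and Gpc5 rests on 1 read in each library.

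Sdc1, the main syndecan of stratified epithelia, had 38340 normalized reads in cornea and 27121 in limbus. The ratio was -0.50 (interval -0.52 to -0.48), that is 1.41-fold higher in the cornea. Its level per exon length was the highest of the members in both tissues, above that of 99.4% of genes in cornea and 99.1% in limbus. Sdc4, a syndecan that takes part in focal adhesions, had 10271 normalized reads in cornea and 7141 in limbus. Its ratio of -0.52 (interval -0.57 to -0.48) was 1.44-fold in favour of the cornea. The ratios of Sdc1 and Sdc4 differed by 0.02 (interval -0.02 to 0.07), so no difference between them was detectable at this depth.

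Sdc3, a syndecan best known from the nervous system, had 214 normalized reads in cornea and 665 in limbus. The ratio was 1.64 (interval 1.41 to 1.86), or 3.11-fold higher in the limbus, and it exceeded that of 89.8% of all genes tested. Its level per exon length was the lowest of the syndecans in both tissues, and its ratio lay 2.14 (interval 1.91 to 2.36) above that of Sdc1. Sdc2, a syndecan typical of mesenchymal cells, had 557 normalized reads in cornea and 636 in limbus. Its ratio of 0.19 (interval 0.02 to 0.36) was the closest to 0 of the members, and at the 99% level its interval held 0.

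Gpc3, a glypican that binds hedgehog and restrains growth, had the highest level per exon length of the glypicans, with 1467 normalized reads in cornea and 3592 in limbus. The ratio was 1.29 (interval 1.20 to 1.38), or 2.45-fold higher in the limbus. Gpc4, which lies beside Gpc3 on the X chromosome and takes part in growth factor and Wnt signaling, had 239.9 normalized reads in cornea and 506.5 in limbus. The ratio was 1.08 (interval 0.85 to 1.30), or 2.11-fold higher in the limbus. The difference of 0.21 between the ratios of these neighbours had an interval of -0.03 to 0.45, which holds 0.

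Gpc6 had the largest ratio of the members, with 17 reads in cornea and 189 in limbus, or 16.4 and 195 normalized reads. The ratio was 3.57 (interval 2.85 to 4.38), or 11.9-fold higher in the limbus, and it exceeded that of 98.1% of all genes tested. It also lay 1.93 (interval 1.17 to 2.78) above that of Sdc3, the next member in order. Its only other read pair, 126 reads in cornea and 87 in limbus, has a ratio of -0.44. That pair gave no valid fit to the deposited fold change and standard error. Gpc5, the gene beside Gpc6 on chromosome 14, had 1 read in each library, so no ratio is given.

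Gpc1, the glypican known from muscle, nerve and many epithelia, had 749.7 normalized reads in cornea and 1300.45 in limbus. Its ratio was 0.79 (interval 0.66 to 0.93), or 1.73-fold higher in the limbus. Gpc2, a glypican of the developing nervous system, had 431 normalized reads in cornea and 345 in limbus. It was the glypican that was higher in the cornea, with a ratio of -0.32 (interval -0.53 to -0.11), or 1.25-fold. When the libraries were scaled to total reads the ratio of Gpc2 was -0.12, and its interval of -0.32 to 0.09 then held 0.

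**Figure D2:**
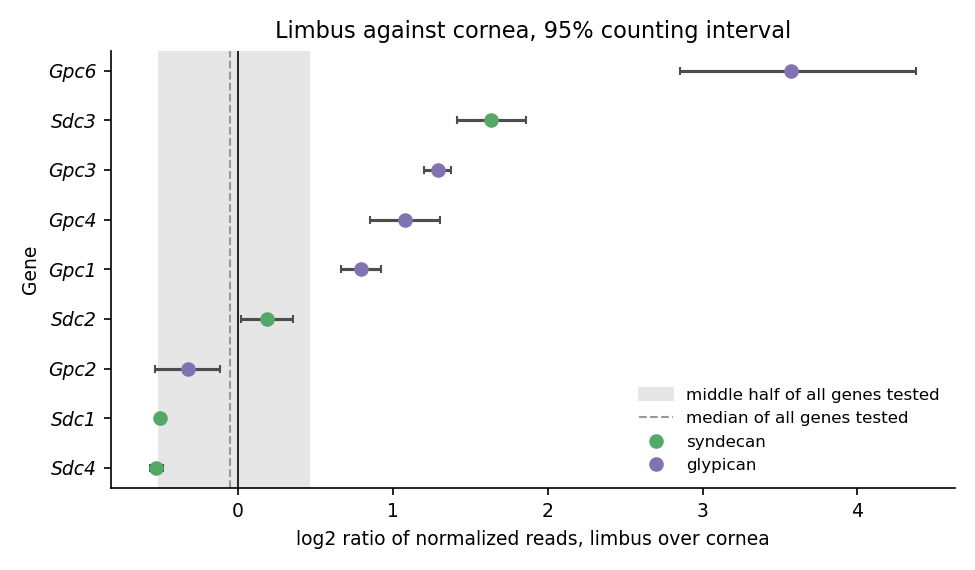
Log2 ratio of normalized reads, limbus over cornea, of the 9 members tested, with 95% counting intervals. The grey band spans the quartiles of all 13862 genes tested (-0.51 and 0.46) and the dashed line is their median (-0.05). Gpc6, Sdc3, Gpc3, Gpc4 and Gpc1 lie to the right of the band, Sdc1 and Sdc4 at its left edge.

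Sequence shared with other genes was measured along a transcript of each member with windows of 75 bases, the read length in the paper's methods. Of the windows of the Gpc2 transcript 88.7% also occurred in Gm43720, a coding gene on the same strand that shares 55.6% of the exon bases of Gpc2 and is not a row of the table, so the value of Gpc2 is uncertain. For Gpc1 22.0% of windows matched the opposite strand of Ankmy1, which had 10 reads in cornea and 4 in limbus. For Sdc3 5.47% matched the antisense gene Gm26716. The library kit keeps the strand, but whether the counting used it is not given in the sources used here, so reads of Sdc3 and of its antisense partner, which is not a row of the table, cannot be told apart. The reads of Ankmy1 compare with 775 and 1258 for Gpc1. For Sdc4, Gpc3, Gpc4 and Gpc6 no window was shared, and for Sdc1, Sdc2 and Gpc5 at most 1.3% were.

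Levels of different genes were compared as RPKM, that is reads divided by the gene's exon length and by the library's reads on named genes. RPKM is scaled to total reads, so ratios between tissues differ from those above by the shift of that scaling, 0.21 on the log2 scale. In the cornea the order was Sdc1 (399), Sdc4 (160), Gpc3 (21.6), Sdc2 (6.26), Gpc1 (5.75), Gpc2 (4.0), Gpc4 (3.58), Sdc3 (1.41) and Gpc6 (0.101). In the limbus the order was Sdc1 (325), Sdc4 (128), Gpc3 (61), Gpc1 (11.5), Gpc4 (8.73), Sdc2 (8.23), Sdc3 (5.07), Gpc2 (3.69) and Gpc6 (1.39). The first 3 places and the place of Gpc6 were the same in both tissues, while Sdc3 stood below Gpc2 in the cornea and above it in the limbus. Counting intervals of neighbours overlapped for Sdc2 and Gpc1 and for Gpc2 and Gpc4 in the cornea, and for Gpc4 and Sdc2 in the limbus. The median over all genes with a length was 2.34 in cornea and 2.73 in limbus.

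**Figure D3:**
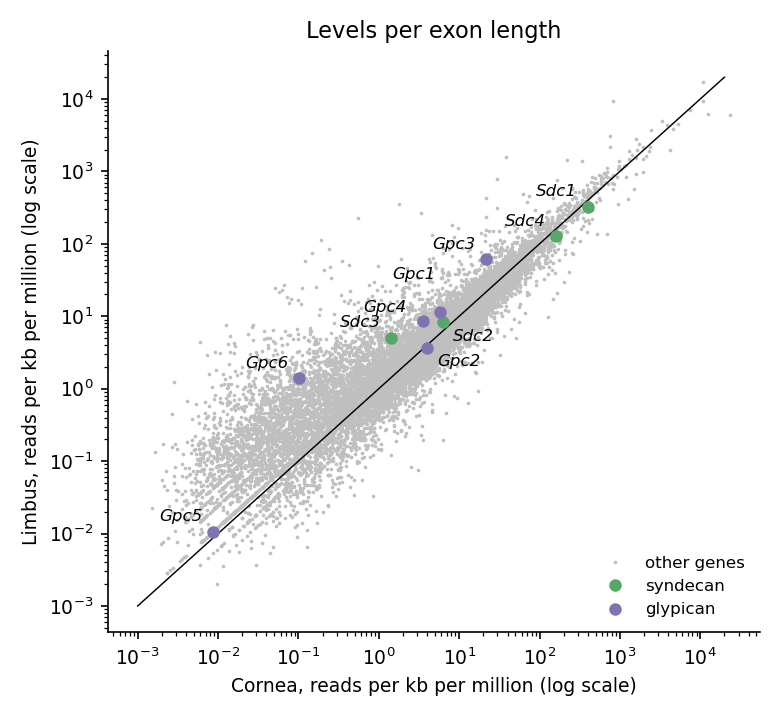
Level per exon length in the limbus against the cornea for all genes with reads in both libraries (grey) and for the 10 members, both axes in RPKM on a log scale, with the line of equal levels. Sdc1 and Sdc4 lie near the top of all genes and just under the line, and Gpc6, Sdc3 and Gpc3 lie above it.

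Summed by family, the syndecans had 51049 reads in cornea and 34402 in limbus, with a ratio of -0.47 (interval -0.49 to -0.45). The glypicans had 3004 reads in cornea and 5747 in limbus, with a ratio of 1.03 (interval 0.97 to 1.10). Both sums were led by single genes, Sdc1 and Gpc3. Glypicans made up 5.56% (interval 5.37 to 5.75) of all member reads in the cornea and 14.3% (interval 14 to 14.7) in the limbus. Per kilobase these shares were 5.83% and 15.6%. A share within a library does not depend on how the libraries are scaled.

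Within the syndecans the makeup per kilobase was close in both tissues, with Sdc1 at 70.4% in cornea and 69.7% in limbus and Sdc4 at 28.2% and 27.4%. The minor members differed, Sdc2 with 1.11% in cornea and 1.76% in limbus and Sdc3 with 0.250% and 1.09%. In reads, Sdc3 made up 0.433% (interval 0.378 to 0.494) of the family in the cornea and 1.87% (interval 1.73 to 2.02) in the limbus, and these intervals do not overlap.

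Within the glypicans Gpc3 made up 61.6% of the family per kilobase in cornea and 70.7% in limbus. The share of Gpc2 was 11.4% in cornea and 4.27% in limbus. This share is uncertain because most Gpc2 windows also occur in Gm43720, and the shares of the other glypicans depend on it. Gpc1 took 16.4% and 13.3% and Gpc4 10.2% and 10.1%, in the same order of tissues. Gpc6 took 0.289% in cornea and 1.61% in limbus. In reads, the share of Gpc4 was 8.26% (interval 7.30 to 9.30) in the cornea and 8.53% (interval 7.82 to 9.28) in the limbus, a difference that was not detectable at this depth.

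**Figure D4:**
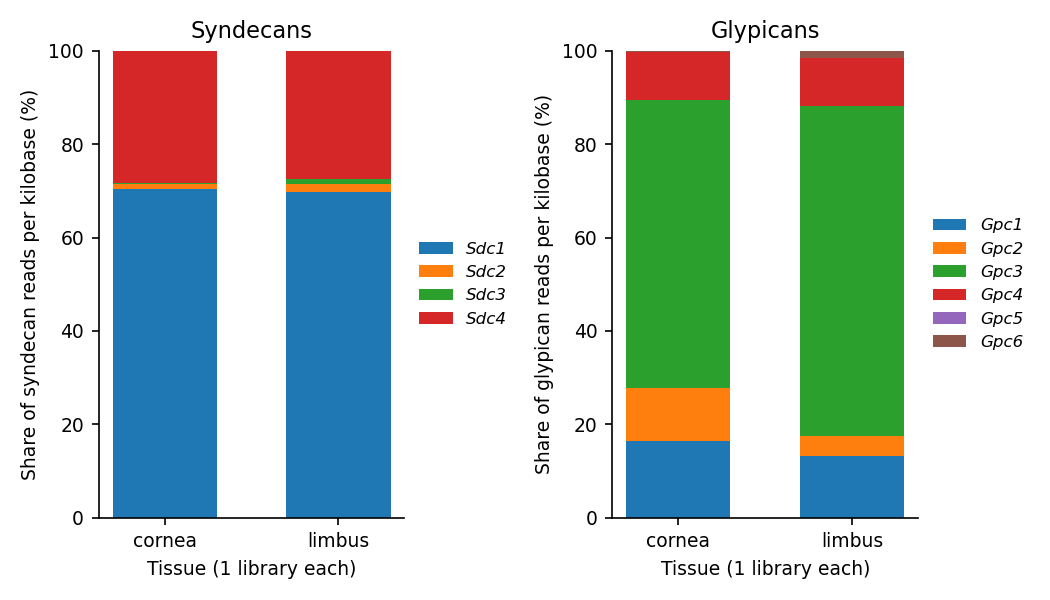
Share of each gene in the reads per kilobase of its family, in percent, in the cornea and the limbus (1 library each), with syndecans on the left and glypicans on the right. Sdc1 holds 70.4% and 69.7% of the syndecans, and Gpc3 holds 61.6% of the glypicans in cornea and 70.7% in limbus. Gpc2, whose reads are uncertain, takes 11.4% in cornea and 4.27% in limbus.

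Both samples are mixtures of cell types, and in such bulk samples fewer cells of a type and less RNA per cell cannot be told apart. Corneal epithelium markers summed to 2506972 normalized reads in cornea and 1032663 in limbus, and 5 of 6 were higher in cornea and 1 in limbus. Keratocyte markers summed to 32492 and 16929, with 3 of 5 higher in cornea and 1 in limbus. Sdc1 and Sdc4, which were higher in the cornea, thus moved with the sums of both lists, as did Gpc2, whose reads are uncertain. Limbal epithelium markers summed to 48432 and 464653, with 5 of 5 higher in the limbus. The corneal and limbal epithelium lists include the keratins that set the direction, and none of their markers was at 0. Fibroblast markers summed to 16901 in cornea and 38355 in limbus, with 3 of 5 tested higher in the limbus and 2 higher in the cornea. Blood vessel endothelium markers (193 and 2528), smooth muscle and pericyte markers (81.3 and 1931) and skeletal muscle markers (83.2 and 11076) were higher in the limbus for 3 of 3, 4 of 4 and 6 of 6 genes tested. Markers of conjunctival epithelium (92220 and 285717), corneal endothelium (2526 and 6763), lymphatic endothelium (2247 and 3410), Schwann cells (4253 and 7060), melanocytes (306 and 1644) and leukocytes (6297 and 10311) also had larger sums in the limbus. Adgre1, of the leukocyte list, had no reads under that symbol in either library. Whether the gene is listed under another symbol was not checked, so absence of its RNA cannot be read from this. Sdc3, Gpc1, Gpc3, Gpc4 and Gpc6 moved with the sums that were larger in the limbus, and the part of cell type content in any member's ratio was not tested.

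Promoters are shown for Sdc1 and Sdc4, which were higher in the cornea, and for Sdc3 and Gpc3, which were higher in the limbus. RefSeq promoters of GRCm38.p6 matched 7 members, all but Sdc2, Gpc1 and Gpc6, and their starts can differ from the GENCODE gene ends above. Each line gives 250 bases before the start, 5′ to 3′ on the gene's own strand, with capitals for the GC box GGGCGG on either strand and for the CCAAT box on either strand.
Sdc1, upstream of the start at chr12:8771146-8771395 (plus strand): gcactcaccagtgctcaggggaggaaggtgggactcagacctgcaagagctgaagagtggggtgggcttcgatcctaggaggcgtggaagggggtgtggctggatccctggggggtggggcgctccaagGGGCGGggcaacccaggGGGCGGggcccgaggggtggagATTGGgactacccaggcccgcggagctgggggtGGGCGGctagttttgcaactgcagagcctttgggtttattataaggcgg
Sdc4, upstream of the start at chr2:164443189-164443438 (minus strand): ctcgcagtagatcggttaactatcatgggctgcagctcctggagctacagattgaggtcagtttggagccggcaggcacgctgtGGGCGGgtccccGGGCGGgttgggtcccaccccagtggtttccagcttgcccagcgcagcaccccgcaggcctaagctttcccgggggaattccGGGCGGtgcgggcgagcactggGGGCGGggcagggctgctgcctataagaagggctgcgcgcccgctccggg
Sdc3, upstream of the start at chr4:130792287-130792536 (plus strand): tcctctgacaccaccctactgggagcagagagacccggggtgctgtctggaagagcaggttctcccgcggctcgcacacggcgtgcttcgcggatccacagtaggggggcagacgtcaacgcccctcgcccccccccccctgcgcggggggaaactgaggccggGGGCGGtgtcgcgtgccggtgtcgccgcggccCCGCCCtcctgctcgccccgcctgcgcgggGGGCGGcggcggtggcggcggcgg
Gpc3, upstream of the start at chrX:52613975-52614224 (minus strand): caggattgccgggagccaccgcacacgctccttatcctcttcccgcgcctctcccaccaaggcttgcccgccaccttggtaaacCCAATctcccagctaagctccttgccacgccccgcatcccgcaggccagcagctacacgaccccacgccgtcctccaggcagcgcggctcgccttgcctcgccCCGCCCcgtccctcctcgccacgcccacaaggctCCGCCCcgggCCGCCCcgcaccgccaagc
All 7 promoters held at least 1 GC box in the window from 250 bases before to 50 after the start, against 35.7% of all 32851 promoters of that length. Sdc1 held 3, Sdc4 held 4, Sdc3 held 3 and Gpc3 held 4, of which 3 lie in the bases shown. The GC content was 66.3% in Sdc1, 67.7% in Sdc4, 77.7% in Sdc3 and 70.7% in Gpc3, against a median of 52.7%. CpG pairs numbered 14 in Sdc1, 22 in Sdc4, 44 in Sdc3 and 30 in Gpc3, against a median of 7. The CCAAT box was found in 37.4% of all promoters and here in Sdc1, Gpc2 and Gpc3. The TATA box TATAAA, held by 13.6% of all promoters, was found in Gpc5. The E box CACGTG (7.15% of all promoters) and the AP-1 site TGANTCA (7.81%) were searched on both strands too and matched none of the 7 windows. The GC boxes were thus common to members that were higher in the cornea and to members that were higher in the limbus.

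The machinery around these cores was examined with gene lists ordered by step. Over all genes tested, beside which each list below is to be read, 33.2% were higher in limbus and 40.6% in cornea. Scaled to total reads, these shares were 45.1% and 29.7%. The xylose linker, on which the chains are built, is made or modified by 7 listed enzymes. Of these, Pxylp1 is not a row of the table under that symbol. The other 6 were tested, 3 were higher in limbus and 2 in cornea, with a median of 0.33 (0.54 when scaled to total reads). Fam20b, the kinase of the linker, had 3568 normalized reads in cornea and 2418 in limbus, a ratio of -0.56. B3galt6 had a ratio of -0.65, while Xylt2, which adds the first xylose, had a ratio of 0.73. Xylt1, with 9 reads in cornea and 12 in limbus, had a ratio of 0.51 whose interval (-0.86 to 1.94) holds 0.

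Of the chain polymerases of the exostosin family 4 of 5 were tested, 2 were higher in limbus and 1 in cornea, with a median of 0.17 (0.38 when scaled to total reads). Ext1 and Ext2, which together form the polymerase, had ratios of 0.36 and 0.41. Extl2 had a ratio of -0.63. Extl3, which starts the chain, had 1259 normalized reads in cornea and 1248 in limbus, and its ratio of -0.01 had an interval of -0.13 to 0.10.

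Of 16 enzymes that modify the chain 11 were tested, 5 higher in each tissue, with a median of -0.09. Scaled to total reads, 6 were higher in limbus and 2 in cornea, with a median of 0.11, and the ratio of Hs6st1 below turns positive too. Hs6st1, a 6-O-sulfotransferase, had the most reads of the list, with 3725 normalized reads in cornea and 3492 in limbus and a ratio of -0.09. Hs3st3a1, a 3-O-sulfotransferase, had 5 reads in cornea and 80 in limbus, a ratio of 4.10 (interval 2.81 to 5.76). Hs6st2 had 7 and 26 reads and a ratio of 1.99. Glce, the epimerase that makes iduronic acid, had a ratio of -1.05 (interval -1.21 to -0.89), and Hs3st5, with 18 and 7 reads, one of -1.27 whose interval (-2.77 to 0.06) holds 0. Outside the cell, 3 of 4 editing enzymes were tested, 2 higher in limbus and 1 in cornea, with a median of 0.79. With the next best read pairs that median was -0.43, and with total reads the interval of Hpse held 0. The endosulfatases Sulf1 and Sulf2 had ratios of 0.79 and 2.07, and heparanase (Hpse), which cuts the chain, had a ratio of -0.26.

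Among 8 proteases that shed syndecan ectodomains 6 were tested, 3 were higher in limbus and 2 in cornea, with a median of 0.83 that the next best read pairs turned to -0.55. Mmp3, a matrix metalloproteinase, had 26 reads in cornea and 8779 in limbus, a ratio of 8.50 (interval 7.94 to 9.11). Adamts1 had a ratio of 2.63. Adam10 and Adam17, the membrane sheddases, had ratios of -0.72 and -0.57.

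Of 10 listed cytoplasmic partners of the syndecans, direct or indirect, all were tested, 1 was higher in the limbus and 6 were higher in the cornea, with a median of -0.09. Scaled to total reads, 4 were higher in limbus and 3 in cornea, with a median of 0.11. Ezrin (Ezr), which links membrane proteins to actin, had 18478 normalized reads in cornea and 10646 in limbus, a ratio of -0.80. Sdcbp2, a relative of syntenin, had a ratio of -0.46. Actn4, an actin crosslinker with the most reads of the list, had a ratio of -0.09, which also turns positive under that scaling, and its read pair was chosen with its dispersion as a further guide. Gipc1, a PDZ protein, had a ratio of 0.25, and the ratio of Prkca (-0.05) had an interval of -0.23 to 0.12 that held 0.

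For the glypicans the matching list held 11 genes for furin-type cleavage, the lipases that cut the anchor and the transamidase that attaches it. All 11 were tested, 8 were higher in limbus and 1 in cornea, with a median of 0.28, or 10 and 0 with a median of 0.49 when scaled to total reads. The shares of all genes tested were 33.2% and 40.6%, or 45.1% and 29.7% under that scaling. Pcsk5, a convertase, had 20 reads in cornea and 76 in limbus and a ratio of 2.02 (interval 1.30 to 2.81). Notum, a secreted hydrolase first described as cutting glypican anchors, had 22 and 54 reads and a ratio of 1.39 (interval 0.65 to 2.18). Pigt and Pigk of the transamidase had ratios of 0.08 and -0.34.

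Proteoglycans of the matrix and part-time carriers of heparan sulfate formed a list of 11 genes. Of these 10 were tested, 9 higher in limbus and 1 in cornea, with a median of 1.89. The shares of all genes tested were 33.2% and 40.6%. The list also holds Vcan (versican), a chondroitin sulfate proteoglycan, named after its values were seen, and without it 8 of 9 were higher in the limbus, with a median of 1.75. Col18a1, a basement membrane collagen that carries heparan sulfate, had 25 reads in cornea and 675 in limbus, a ratio of 4.85 (interval 4.28 to 5.49). Serglycin (Srgn), the proteoglycan of blood cell granules, had 9 and 84 reads and a ratio of 3.32. Agrin (Agrn) had 3335 normalized reads in cornea and 3689 in limbus, a ratio of 0.15. Cd44, the hyaluronan receptor, was the gene of the list that was higher in the cornea, with 12639 normalized reads there and 3033 in the limbus, a ratio of -2.06 (interval -2.12 to -2.0). Serglycin and Col18a1 were higher in the limbus, as were the sums of all marker lists except corneal epithelium and keratocyte. The part of cell types in their ratios was not tested.

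**Figure D5:**
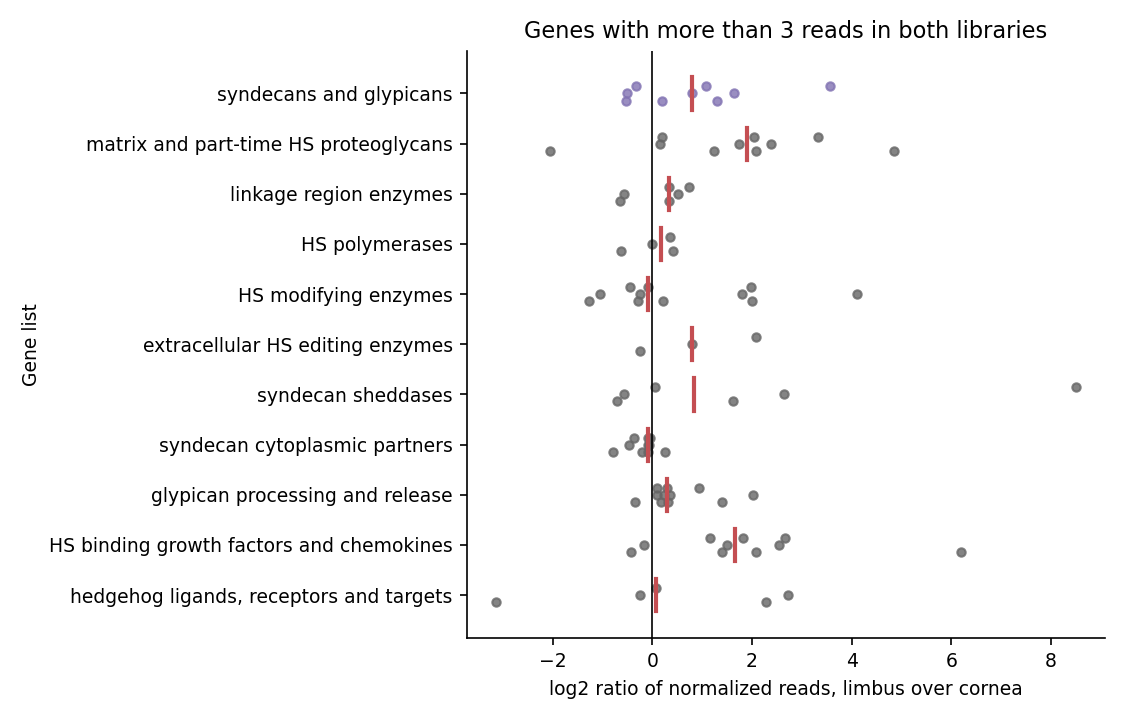
Log2 ratio of normalized reads, limbus over cornea, of each gene with more than 3 reads in both libraries, by list, with red bars for the list medians and HS for heparan sulfate. The medians run from -0.09 for the modifying enzymes and the syndecan tail partners to 1.89 for the matrix and part-time proteoglycans, and the point at 8.50 is Mmp3.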

How the data were processed

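RNA sequencing of pooled limbal rims and corneal buttons was deposited as 1 table. Per the paper's methods, libraries were made with a stranded total RNA kit, reads were mapped with CLC Genomics Workbench 20 to GRCm38 (mm10), and normalization used the trimmed mean of M-values. The deposited mean of each gene is a normalized signal averaged over the libraries. The authors also deposited shrunken fold changes on the log2 scale, their standard errors, and p-values with adjusted p-values. None of these is printed, and the p-values were not used. The columns are those of a DESeq table, a tool the methods do not name.

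With size factors in the ratio 109 (cornea) to 102 (limbus), each mean above 0 lay within 0.0101 of a whole step, a step being the unit of which reads of the 2 libraries are whole multiples. Where several read pairs gave a mean, the pair was kept that came closest to the deposited log2 fold change and standard error under a shrinkage model. For 144 genes with close fits, Actn4 among those named, the dispersion of genes with like means decided, and for 173 with a fold change near 0 the nearest ratio. For Gpc5 the mean alone set the pair, and for the other 9 members the next pair missed by at least 40.5 times as much. Because the reads depend on the deposited fold change, they are not independent of the authors' comparison. Recovery was tested on simulated data. Rows without a gene name, 17484 of 40904, were left out, as were accessions, of which 2 of 18556 belonged to the symbol in their row.

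Ratios were computed in Python 3.11.15 with scipy 1.17.1, with no test across replicates and no p-value. Lengths and positions came from GENCODE M21 and promoters from RefSeq. Every member is named, and in each list the gene with the most reads and the 2 highest and 2 lowest ratios among the genes tested. The members and lists were chosen with earlier results of these data known. Alternatives were scaling to total reads or the trimmed mean of M-values, a pseudocount of 1, filters on a mean of 10 or 50, the next best read pair, intervals at 99%, and other lengths.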

Additional observations from a re-analysis of the deposited data

How the results depend on the processing

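With 1 library per tissue the depth limits counting error only, and no replicate was there to leave out and no test between tissues was run. No paired analysis was possible because the table gives 1 library per tissue. The libraries rest on pooled eyes, so variation between animals cannot be read from them.

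Of the members' ratios under alternatives, 49 stayed within the main counting interval, 12 moved beyond it and 1 changed sign. Of the counts of members, 27 stayed within 1.5 times the main count and 1 did not. List medians have no interval: 55 kept their sign and stayed within 1.5 times, 12 moved further and 4 changed sign.

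Scaling to total reads raised every ratio by 0.21, by construction, and gave Sdc1 -0.29, Sdc2 0.40, Sdc4 -0.32, Gpc1 1.0 and Gpc3 1.5. It left 2 members higher in the cornea, since the interval of Gpc2 then held 0, and put 5 members at least 2-fold higher in the limbus. Medians were then 0.54 for linkage enzymes, 0.38 for polymerases, 0.49 for glypican processing and 0.27 for hedgehog genes, and changed sign to 0.11 for both modifying enzymes and syndecan tail partners. The trimmed mean of M-values raised every ratio by 0.02. At the 99% level 5 members were higher in the limbus, since the interval of Sdc2 then held 0. A filter on a mean of 50 gave medians of 1.24 for the matrix and part-time proteoglycans and -0.24 for the modifying enzymes. Leaving Vcan out of the former list, a choice made after seeing the data, gave 1.75.

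The next best read pair gave Sdc1 -3.27, Sdc2 0.71, Sdc4 -3.35, Gpc1 4.05, Gpc2 -1.16, Gpc3 5.68, Gpc4 4.63 and Gpc6 -0.44, the last with the opposite sign. It put 4 members higher in each tissue and 3 at least 2-fold higher in the cornea, and for Sdc3 it left 3 reads in the cornea and no ratio. Those pairs miss the deposited values by far more than the pairs used, and that of Gpc6 gave no valid fit at all. Medians were then 1.05 for linkage enzymes, 0.72 for polymerases, -0.52 for modifying enzymes, -0.60 for tail partners, 1.39 for glypican processing and 1.80 for hedgehog genes, and changed sign to -0.43 for editing enzymes and -0.55 for sheddases.

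Of the family shares, 15 stayed within 0.5 percentage points and 25 did not. With the longest transcript as length, shares in cornea and limbus were 73.5% and 72.7% for Sdc1, 25.3% and 24.6% for Sdc4, 9.78% and 3.61% for Gpc2, 63.8% and 72% for Gpc3 and 8.72% and 8.48% for Gpc4, and 17.3% for Gpc1 in cornea. With no division by length they were 77.6% and 76.3% for Sdc1, 20.8% and 20.1% for Sdc4, 25.8% and 21.9% for Gpc1, 14.8% and 5.81% for Gpc2, 50.5% and 60.5% for Gpc3 and 8.26% and 8.53% for Gpc4, and in limbus 1.87% for Sdc3 and 3.29% for Gpc6.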

Other observations

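Among 12 growth factors and chemokines that bind heparan sulfate, 10 were tested, 8 were higher in limbus and 1 in cornea, with a median ratio of 1.65. Of all genes tested, 33.2% were higher in limbus and 40.6% in cornea. Cxcl12, a chemokine that attracts and retains progenitor cells and leukocytes, had 11 reads in cornea and 748 in limbus, a ratio of 6.18 (interval 5.34 to 7.19). Pleiotrophin (Ptn), a growth factor known as a ligand of syndecan-3, had 122 and 718 reads and a ratio of 2.65 (interval 2.37 to 2.94). Hbegf, an epidermal growth factor receptor ligand with the most reads of the list, was higher in the cornea, with 5179 normalized reads there and 3834 in the limbus, a ratio of -0.43. Fgf10 had a ratio of -0.16 whose interval (-0.58 to 0.26) holds 0. The sums of all marker lists except corneal epithelium and keratocyte were also larger in the limbus. Of the fibroblast markers, 3 were higher in limbus and 2 in cornea. The part of cell types in these ratios was not tested.

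Of 10 ligands, receptors and targets of the hedgehog pathway, which Gpc3 is known to bind through its ligands, 5 were tested, 2 higher in limbus and 1 in cornea, with a median ratio of 0.07 (0.27 when scaled to total reads). The shares of all genes tested were 33.2% and 40.6%. Sonic hedgehog (Shh) was listed at 0 in both libraries. Smo, the signal transducer with the most reads of the list, had 335 reads in cornea and 1524 in limbus, a ratio of 2.28 (interval 2.11 to 2.46). Gli2, a transcription factor of the pathway, had 26 and 161 reads and a ratio of 2.73. Hhip, which binds and blocks hedgehog ligands, had 253 reads in cornea and 27 in limbus, a ratio of -3.13 (interval -3.76 to -2.56). The ratio of Gli3 was -0.25, with an interval of -0.57 to 0.06.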
